A study of Mus musculus with 19 samples.

Results

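The 10 genes described here encode the pyruvate dehydrogenase complex and the enzymes that switch it off and on: the kinases *Pdk1*, *Pdk2*, *Pdk3* and *Pdk4*, the phosphatases *Pdp1* and *Pdp2*, and the subunits *Pdha1*, *Pdhb*, *Dlat* and *Pdhx*. They were chosen by symbol, with earlier results of these data known. All 10 were found in each table, among 55573 genes in the table of 7 tissues, 55487 in that of brown adipose tissue (BAT) and 13756 in that of inguinal white adipose tissue (iWAT). RNA-Seq covered 19 libraries. For 7 libraries RNA came from brown adipose tissue, heart, brain, small intestine, tibialis anterior (TA) muscle, white adipose tissue (depot not stated) and liver of wild-type (WT) C57BL/6J mice on chow diet, 1 library per tissue. The other 12 came from iWAT and BAT of male MCK-Musclin and WT control mice, 5 months old, also on chow diet and kept at 8 °C for 1 week, with 3 libraries per genotype and tissue. MCK-Musclin mice carry the coding sequence of Musclin, a peptide secreted by muscle that is also known as Osteocrin and encoded by *Ostn*, behind the muscle creatine kinase promoter on a C57BL/6J background. Several founder lines were made, which line was sequenced is not stated, and both genotypes had been in the cold, so no difference below is an effect of cold. Whether the iWAT and BAT libraries came from the same mice is not stated.

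The complex sits in the mitochondrial matrix and turns pyruvate into acetyl-CoA, the step that commits carbon from glucose to oxidation or to fatty acid synthesis. Its E1 component, made of the alpha subunit Pdha1 and the beta subunit Pdhb, decarboxylates pyruvate. E2 (Dlat) makes acetyl-CoA, and Pdhx anchors E3 (Dld), which is shared with related dehydrogenases. The 4 kinases inactivate the complex by phosphorylating Pdha1, and the 2 phosphatases reverse this. *Pdk4* is known for its rise with fasting and fatty acid use, *Pdk2* is the most widely expressed kinase, and *Pdk1* is a known target of hypoxia signaling. All of this concerns enzyme activity as well as mRNA, and only mRNA was measured here.

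The sequence upstream of the RefSeq start is printed for 4 of the 10 genes (GRCm38.p6, from 250 to 41 bases before the start, sense strand): *Pdk4*, whose level varied most widely among tissues, *Pdk2*, which was lower in both adipose tissues of MCK-Musclin mice, and the pair that makes up E1, *Pdha1* and *Pdhb*. Capitals mark matches to ACGTG, the core of a hypoxia response element, or to CCAAT, the CCAAT box, on either strand, with overlapping matches merged. The windows are chr6:5496319-5496528 for *Pdk4*, chr11:95041412-95041621 for *Pdk2*, chrX:160138471-160138680 for *Pdha1* and chr14:8173033-8173242 for *Pdhb*, all on the minus strand.
Pdk4: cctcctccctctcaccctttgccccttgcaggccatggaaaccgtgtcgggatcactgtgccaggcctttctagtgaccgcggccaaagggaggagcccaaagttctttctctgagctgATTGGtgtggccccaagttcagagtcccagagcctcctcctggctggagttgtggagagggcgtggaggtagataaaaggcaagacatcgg
Pdk2: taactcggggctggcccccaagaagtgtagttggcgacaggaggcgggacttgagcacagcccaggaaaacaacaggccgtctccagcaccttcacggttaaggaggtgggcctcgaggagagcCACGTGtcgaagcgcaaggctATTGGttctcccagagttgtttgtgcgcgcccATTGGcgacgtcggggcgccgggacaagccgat
Pdha1: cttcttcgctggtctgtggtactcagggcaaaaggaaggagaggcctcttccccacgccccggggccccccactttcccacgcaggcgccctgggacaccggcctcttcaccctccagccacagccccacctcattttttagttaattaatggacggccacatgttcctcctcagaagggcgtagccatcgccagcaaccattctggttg
Pdhb: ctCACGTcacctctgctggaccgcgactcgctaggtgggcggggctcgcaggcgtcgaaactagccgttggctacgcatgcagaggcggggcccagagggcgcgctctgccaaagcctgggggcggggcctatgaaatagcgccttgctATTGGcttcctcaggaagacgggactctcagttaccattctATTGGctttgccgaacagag

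The genes themselves lie at chr6:5483351-5496309 (*Pdk4*), chr11:95026258-95041354 (*Pdk2*), chrX:160122209-160138413 (*Pdha1*) and chr14:8165996-8173025 (*Pdhb*) in GRCm38, and all 10 are annotated as protein-coding. RefSeq promoters were found for 9 of the 10 genes, all but *Pdp1*. For *Pdk2* and *Pdha1* the RefSeq start lay upstream of the gene span given above, so their distances hold for the RefSeq start only. The window of *Pdk2* held ACGTG on both strands as the palindrome CACGTG at 126 bases before the start and a CCAAT box at 105 and 73 bases before it. *Pdhb* held an ACGTG core on the minus strand and a CCAAT box at 101 and 60 bases before the start. *Pdk4* held 1 CCAAT box, and the window of *Pdha1* held none of the letters searched. Over the 9 windows ACGTG occurred in 4 (*Pdk2*, *Pdk3*, *Pdp2* and *Pdhb*), beside 13.7% of 32851 promoter windows of the same length, and CCAAT in 5 (the same 4 and *Pdk4*), beside 29.9%. The 9 windows held 58.6% to 67.1% G and C bases, whereas the median of all promoters was 51.9%. The shares are thus not matched for base composition, and no enrichment was tested. None of the 9 held, on either strand, TCAAGGTCA for estrogen-related receptors (0.341% of all windows), AAGGTCA for nuclear receptors in general (3.54%), GTAAACA for FoxO factors (2.68%), the PPAR direct repeat (0.0304%) or the NRF1 element (0.505%). The first of these includes the second.

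Ahead of the comparisons, the labels were checked. In the 7 tissues the summed FPKM (fragments scaled by gene length and library size) of each tissue's own marker list was highest in the library of that name. *Ostn* was at 37.9, 31.6 and 30.3 FPKM in the MCK-Musclin BAT libraries and at 0 in the 3 WT libraries. In iWAT it was at 0, 0 and 0.225 FPKM in WT mice and at 0, 5.17 and 4.21 FPKM in MCK-Musclin mice. The transgene is driven in muscle, so its level in fat does not check a label, but the iWAT library labelled MCK-Musclin 1 stood with the WT libraries in *Ostn*, and the iWAT values of the 10 genes, and the medians and counts of the pathway lists, are given with and without it. In B and T cell genes that library stood with the other MCK-Musclin libraries, at 390 FPKM in sum against 206 to 316 in WT mice. WT 3 of iWAT held 4906 FPKM of 15 fast muscle genes in sum, against 11.7 to 871 in the other iWAT libraries. MCK-Musclin 1 held 12.3 FPKM of them, against 169 and 200 in MCK-Musclin 2 and 3. The part of muscle RNA in the *Ostn* values of iWAT was not tested.

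The first question was where the genes are expressed. With 1 library per tissue there is no replicate error, so the values describe these libraries and no difference between tissues was tested. In whole tissue, fewer cells of a type and less RNA per cell cannot be told apart. Brown adipose tissue had the highest level of 5 of the 10 genes, *Pdk4*, *Pdp2*, *Pdha1*, *Pdhb* and *Dlat*, where 5.72% of 18327 genes peaked, and heart that of 2 (*Pdk1* and *Pdhx*), where 3.65% did. TA muscle was highest for *Pdk2* (5.49% of all genes), small intestine for *Pdk3* (27.1%) and brain for *Pdp1* (29.7%). Only *Pdk4* was at least 2-fold above the next tissue on the log2(FPKM + 1) scale, 1 of 10 genes against 37.8% of all genes.

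**Figure D1:**
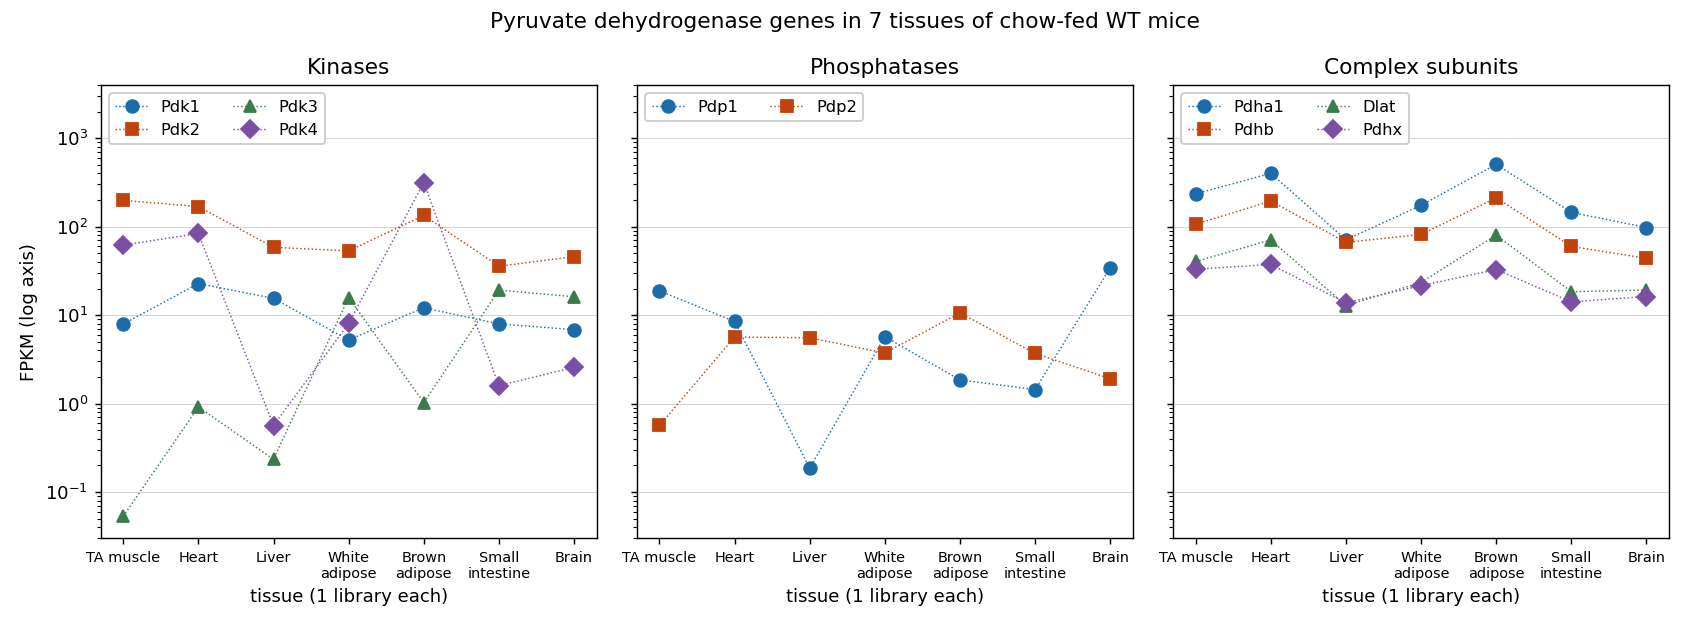
FPKM (log axis) of the kinases, phosphatases and subunits in 7 tissues of chow-fed WT mice, 1 library per tissue, with dotted lines only to guide the eye. The 4 subunits followed one another from tissue to tissue, whereas *Pdk3* was above 15 FPKM in white adipose tissue, small intestine and brain only and *Pdk4* reached 315 FPKM in brown adipose tissue.

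Among the kinases, *Pdk4* and *Pdk3* varied most. *Pdk4* was at 315 FPKM in brown adipose tissue, 83.8 in heart, 61.9 in TA muscle, 8.06 in white adipose tissue, 2.57 in brain, 1.60 in small intestine and 0.566 in liver. Its highest level was thus 3.76 times the next and 556 times the lowest. *Pdk2* was far more even, at 198 FPKM in TA muscle, 169 in heart, 134 in brown adipose tissue, 58.4 in liver, 53.3 in white adipose tissue, 45.9 in brain and 35.7 in small intestine, a range of 5.55-fold. *Pdk1* spanned 4.35-fold, from 5.24 FPKM in white adipose tissue to 22.8 in heart, with liver next at 15.5.

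*Pdk3* had another order. Small intestine (19.2 FPKM), brain (16.1) and white adipose tissue (15.8) were high, and the level was 1.03 FPKM or lower in brown adipose tissue, heart, liver and TA muscle (0.0533). The tissues thus fell into those above 15 FPKM and those near or below 1 FPKM, and the order of the top 3 depended on the scaling, since brain came first when the FPKM of each library were rescaled to a common sum. B and T cell genes summed to 87.4 FPKM in small intestine, 10.2 in white adipose tissue and 7.31 in brain, and their part in the level of *Pdk3* was not tested.

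As shares of the summed FPKM of the 4 kinases, which do not depend on how a library is scaled, *Pdk2* was the largest in every tissue but brown adipose tissue. It made up 78.2% in liver and 29.0% in brown adipose tissue. *Pdk4* made up 68.2% in brown adipose tissue, 30.3% in heart, 23.1% in TA muscle, 9.78% in white adipose tissue and 0.757% in liver. The share of *Pdk3* was 29.8% in small intestine, 22.6% in brain and 19.2% in white fat, and that of *Pdk1* reached 20.7% in liver. Liver mRNA was therefore almost wholly *Pdk2* and *Pdk1*, and brown adipose mRNA almost wholly *Pdk4* and *Pdk2*.

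**Figure D2:**
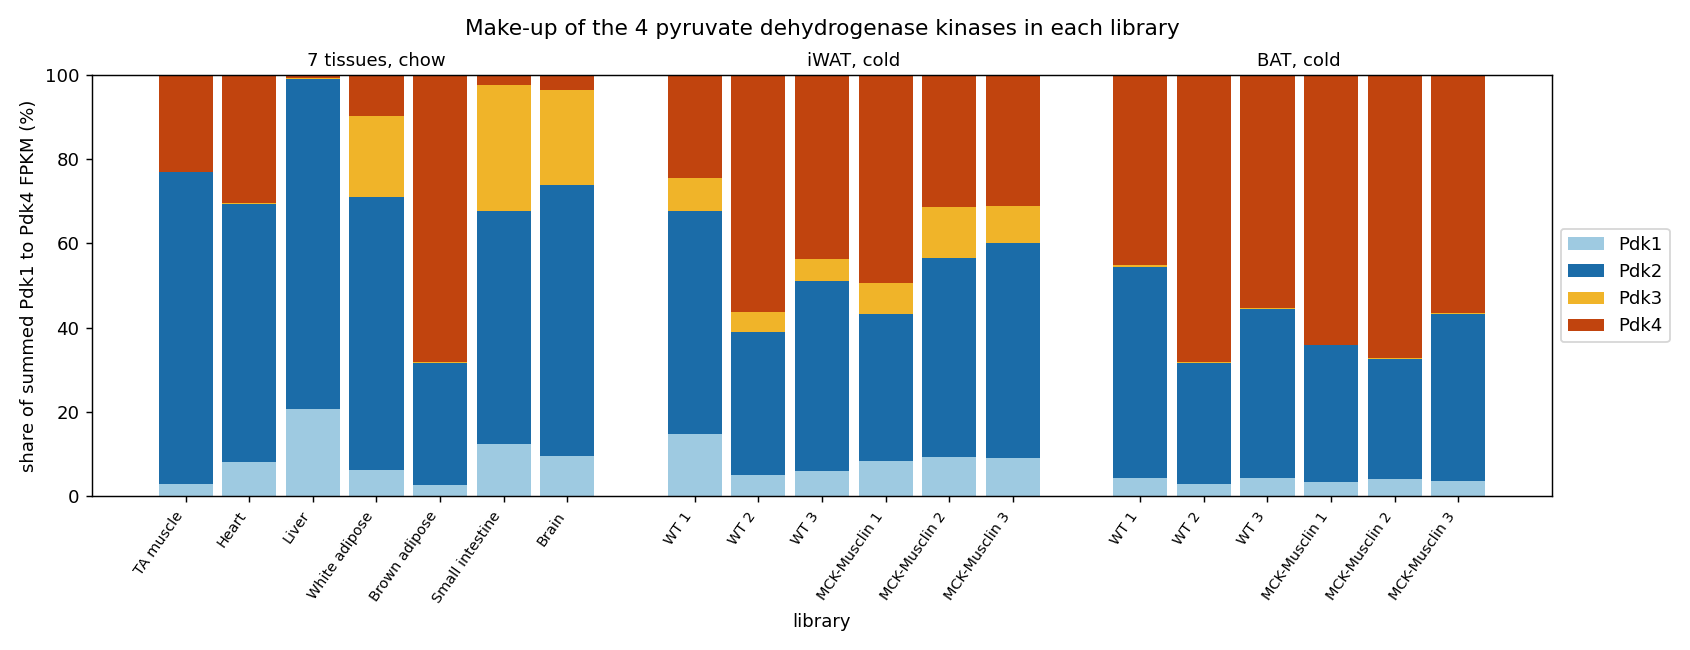
Share of each kinase in the summed FPKM of *Pdk1* to *Pdk4* (%), for the 7 tissues and for the 6 iWAT and 6 BAT libraries of cold-exposed mice, all on chow diet. *Pdk4* took 68.2% in brown adipose tissue among the 7 tissues, 24.5% to 56.3% in iWAT of cold-exposed WT mice and 45.1% to 68.1% in BAT of cold-exposed WT mice.

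The phosphatases divided the tissues between them. *Pdp1*, the calcium-sensitive form, was at 34.4 FPKM in brain, 18.8 in TA muscle, 8.49 in heart and 5.72 in white adipose tissue, and below 2 FPKM in brown adipose tissue (1.85), small intestine (1.44) and liver (0.186). *Pdp2*, the form without that calcium response, was highest in brown adipose tissue, at 10.6 FPKM, with heart at 5.65 and liver at 5.56, and lowest in TA muscle, at 0.566 FPKM. *Pdp1* accounted for 97.1% of phosphatase FPKM in TA muscle, 94.7% in brain, 14.9% in brown adipose tissue and 3.25% in liver. Heart lay between them, with *Pdp1* at 60.0%. With median-ratio scaling of the libraries TA muscle, not brain, was highest for *Pdp1*.

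Kinase FPKM exceeded phosphatase FPKM in every tissue, by 1.97 times in brain, 8.72 times in white adipose tissue, 12.6 to 13.9 times in liver, small intestine and TA muscle, 19.5 times in heart and 37.1 times in brown adipose tissue. Brain and brown adipose tissue were the extremes, brain through *Pdp1* and brown adipose tissue through *Pdk4*. Per *Pdha1*, the substrate of both enzymes, kinase FPKM was 1.14 in TA muscle, 1.05 in liver, 0.910 in brown adipose tissue and 0.445 in small intestine. The high kinase level of brown adipose tissue thus came with a high level of their substrate.

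The subunits kept closer to one another. *Pdha1*, which carries the sites that the kinases phosphorylate, was at 507 FPKM in brown adipose tissue, 401 in heart, 235 in TA muscle, 174 in white adipose tissue, 145 in small intestine, 97.9 in brain and 71.1 in liver. *Pdhb* ran from 212 FPKM in brown adipose tissue and 195 in heart to 43.9 in brain. *Dlat* ran from 80.3 FPKM in brown adipose tissue and 70.9 in heart to 12.8 in liver. *Pdhx* was the flattest, from 37.4 FPKM in heart, 33.1 in TA muscle and 32.8 in brown adipose tissue to 13.8 in liver. Brown adipose tissue and heart were close for all 4, and median-ratio scaling put heart first for *Pdha1*, *Pdhb* and *Dlat*, and TA muscle first for *Pdhx*, as did rescaling to a common sum for *Pdhx*.

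The ratios between subunits were narrow. *Pdha1* was 2.06 to 2.42 times *Pdhb* in 6 tissues and 1.07 times in liver, where both E1 genes were at nearly the same FPKM (71.1 and 66.4). *Pdha1* was 5.09 to 7.88 times *Dlat* in all 7. *Dlat* was 2.45 times *Pdhx* in brown adipose tissue, 1.90 times in heart and 0.931 to 1.30 times in the others. *Pdha1* was the only member whose exons overlap another gene, *Map3k15* on the opposite strand. Reads were counted without strand, and *Map3k15* was at 1.33 FPKM at most.

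Across the 7 tissues, Pearson's r on log2(FPKM + 1) was 0.88 to 0.97 among the 4 subunits, a description over 7 libraries that share their depth and scaling. *Pdk4* followed the subunits at 0.92 to 0.98 and *Pdk2* at 0.74 to 0.92, whereas *Pdk1* did at 0.32 to 0.58 and *Pdk3* at -0.60 to -0.32. Among 9887 protein-coding genes with at least 10 FPKM in a tissue, those most like *Pdk4* were *Uqcc1* (r = 0.996), *Ndufb4*, *Tmem143*, *Dlat* (r = 0.977) and *Ndufb8*, which include genes of respiratory complexes I and III. Those most like *Pdha1* were *Ndufb8* (r = 0.982), *Dlat*, *Tmem70*, *Ndufv3* and *Ndufa3*. For *Pdk2* they were *Cd99l2* (r = 0.973), *Perm1*, *Macrod1*, *Coq9* and *Mrpl53*. For *Pdk1* they were *Lrpprc* (r = 0.931), *Nnt*, *Gfm1*, *Timm10* and *Pmpcb*, where the entry for *Nnt* is 1 of 2 of that symbol, and for *Pdk3* they were *Snrnp70* (r = 0.994), *Xpo1*, *Mtmr12*, *Sh3bgrl3* and *Lxn*. *Pdk1* had 1 gene with r over 0.9 and *Pdk3* had 514. White adipose tissue, small intestine and brain, where *Pdk3* was high, also had the largest factors in median-ratio scaling (1.29 to 1.59, against 0.583 to 1.00). After that scaling *Pdk3* was at 9.92 to 13.7 FPKM there and at 1.23 or lower elsewhere. The part of scaling in the count of 514 was not tested.

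Other genes of the pathway gave a frame for these levels. *Dld*, the E3 subunit, was at 287 FPKM in brown adipose tissue, 176 in heart and 58.1 in brain, so it too was highest where *Pdha1* was. *Mpc1*, a subunit of the carrier that brings pyruvate into mitochondria, was at 202 FPKM in heart, 168 in brown adipose tissue, 163 in TA muscle and 58.0 in small intestine. *Pcx*, which makes oxaloacetate from pyruvate in the same compartment, had another order, at 231 FPKM in white adipose tissue, 89.4 in brown adipose tissue, 86.2 in liver and 4.60 in heart. Citrate synthase (*Cs*), which takes up the acetyl-CoA, was at 438 FPKM in brown adipose tissue and 23.1 in liver, and *Pdha1* per *Cs* was 0.715 in small intestine, 1.16 to 1.65 in 5 tissues and 3.08 in liver.

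The second question was whether the genes differed between MCK-Musclin and WT mice in iWAT, the depot in which cold brings out beige adipocytes. In these libraries 9 of the 10 genes were lower in MCK-Musclin mice, all but *Pdk3*, with a median log2 difference of -0.36, while 38.7% of 12197 genes tested were lower and their median was 0.06. None of the 10 had an adjusted p under 0.05 (limma, Benjamini-Hochberg), and none of the 12197 genes did, the smallest being 0.0912. None passed the cutoff the study used in iWAT, an unadjusted p under 0.05 with a log2 difference over 0.5, which 0.902% of genes passed as lower, 5.04% as higher and 5.94% in either direction. The study set these thresholds on a count model and here they were set on limma, so the calls are not the calls of the study. At an unadjusted p under 0.05, *Pdk2*, *Pdha1* and *Pdp2* were lower, 3 of 10 against 3.44% of all genes as lower and 16.5% in either direction. The values below are therefore given as levels with their errors, and no gene is called changed.

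*Pdk2* was at 48.9, 59.4 and 63.3 FPKM in WT mice and at 44.5, 41.2 and 47.0 FPKM in MCK-Musclin mice. Every MCK-Musclin library was below every WT library, as in 5.44% of all genes. The means were 57.2 ± 7.44 (SD, n = 3) and 44.2 ± 2.91 FPKM (SD, n = 3), a log2 difference of -0.36 ± 0.12 (SE, limma, p = 0.0193, adjusted p = 0.217, exact permutation p = 0.1). An exact p of 0.1 is the smallest that 3 against 3 libraries allow. The unadjusted p rose above 0.05 without WT 2 (0.0585), WT 3 (0.0648) or MCK-Musclin 2 (0.0626) and was 0.0438 without the library labelled MCK-Musclin 1.

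The E1 subunits were lower on average and overlapped. *Pdha1* was at 365, 334 and 281 FPKM in WT mice and at 309, 213 and 209 FPKM in MCK-Musclin mice, and *Pdhb* at 174, 137 and 134 and at 151, 95.6 and 78.6 FPKM. For both, MCK-Musclin 1 lay among the WT libraries and the other 2 lay below all of them. *Pdha1* differed by -0.44 ± 0.18 on the log2 scale (SE, limma, p = 0.0436, adjusted p = 0.286, exact permutation p = 0.2). *Pdhb* differed by -0.50 ± 0.24 (SE, limma, adjusted p = 0.349).

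E2 and the E3 binding protein had the same layout. *Dlat* was at 46.7, 35.6 and 41.8 FPKM in WT mice and at 41.5, 23.9 and 24.3 FPKM in MCK-Musclin mice (-0.49 ± 0.22, SE, limma, adjusted p = 0.317). *Pdhx* was at 34.4, 28.2 and 27.7 FPKM and at 30.9, 20.5 and 19.6 FPKM (-0.36 ± 0.18, SE, limma, adjusted p = 0.376). Without the library labelled MCK-Musclin 1 the log2 differences of *Pdha1*, *Pdhb*, *Dlat* and *Pdhx* were -0.62, -0.76, -0.75 and -0.56, all 4 passed the cutoff of the study, and their adjusted p was 0.193 to 0.196. That library had the highest level of the MCK-Musclin libraries for all 4, so leaving it out could only enlarge these differences. The summed FPKM of the 4 subunits was 485 to 621 in WT mice, 533 in MCK-Musclin 1 and 353 and 332 in MCK-Musclin 2 and 3.

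**Figure D3:**
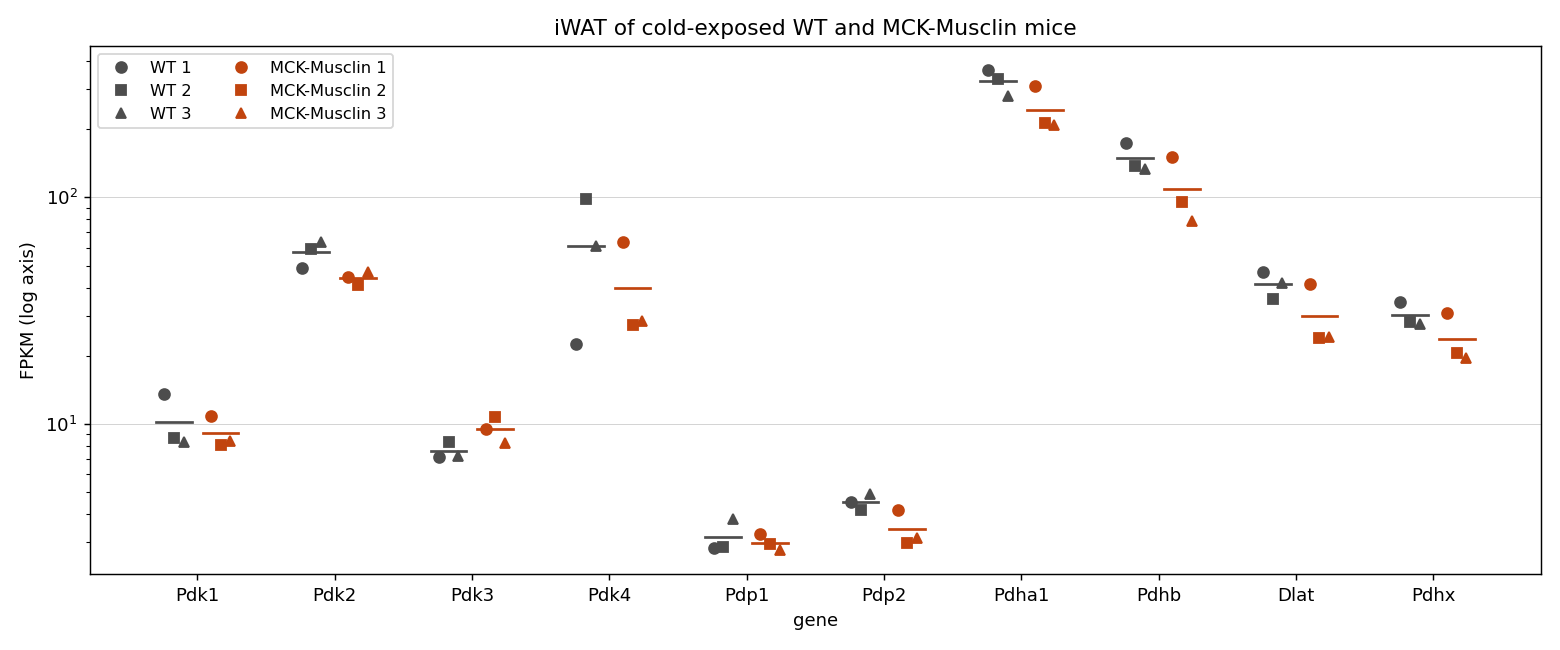
FPKM (log axis) of the 10 genes in each iWAT library of cold-exposed WT (grey) and MCK-Musclin (red) mice, with the group mean as a bar. For *Pdha1*, *Pdhb*, *Dlat* and *Pdhx* the red circle, MCK-Musclin 1, lies among the WT libraries and the other 2 below them.

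*Pdk4* varied most within a group. It was at 22.6, 98.3 and 61.2 FPKM in WT mice and at 63.4, 27.2 and 28.6 FPKM in MCK-Musclin mice. The WT libraries alone spanned 4.35-fold, and WT 1 was below every MCK-Musclin library. The log2 difference was -0.48 ± 0.54 (SE, limma, adjusted p = 0.697), with a 95% confidence interval from -1.75 to 0.79, so a difference of either sign was not detectable at this spread. It was -0.02 without WT 2 and -1.06 without WT 1, where the unadjusted p was 0.0348 and the adjusted p 0.244.

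*Pdk3* was the only member with a higher mean in MCK-Musclin mice. It was at 7.15, 8.32 and 7.19 FPKM in WT mice and at 9.49, 10.7 and 8.21 FPKM in MCK-Musclin mice, where MCK-Musclin 3 was below WT 2. The log2 difference was 0.29 ± 0.12 (SE, limma, p = 0.0520, adjusted p = 0.306, exact permutation p = 0.2). All 10 B and T cell genes were higher in every MCK-Musclin library than in every WT library, with a summed FPKM of 206 to 316 in WT and 390 to 475 in MCK-Musclin mice, and their part in the difference of *Pdk3* was not tested. *Pdk1* was at 13.6, 8.70 and 8.31 FPKM in WT mice and at 10.9, 8.06 and 8.38 FPKM in MCK-Musclin mice, with WT 1 and MCK-Musclin 1 above the other 4 libraries, and its sign turned without WT 1.

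Among the phosphatases, *Pdp2* was at 4.54, 4.15 and 4.89 FPKM in WT mice and at 4.15, 2.97 and 3.15 FPKM in MCK-Musclin mice. The groups did not overlap, though WT 2 (4.149) and MCK-Musclin 1 (4.148) were nearly the same. The log2 difference was -0.33 ± 0.14 (SE, limma, p = 0.0437, adjusted p = 0.286, exact permutation p = 0.1). *Pdp1* was at 2.85, 2.85 and 3.81 FPKM in WT mice and at 3.26, 2.96 and 2.77 FPKM in MCK-Musclin mice, a log2 difference of -0.05 with a 95% confidence interval from -0.37 to 0.26. *Pdp1* made up 38.5% to 43.8% of phosphatase FPKM in WT mice and 44.0% to 49.9% in MCK-Musclin mice, without overlap, whereas kinase over phosphatase FPKM, kinase over *Pdha1* FPKM and the share of each kinase overlapped between genotypes.

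Without the library labelled MCK-Musclin 1, 9 of the 10 genes were again lower and their median was -0.50. The kinases were then at -0.25 (*Pdk1*), -0.36 (*Pdk2*), 0.28 (*Pdk3*) and -0.86 (*Pdk4*) and the phosphatases at -0.10 (*Pdp1*) and -0.44 (*Pdp2*), none past the cutoff. Without WT 3, whose fast muscle genes were highest, 8 of the 10 were lower and the median was -0.32.

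Markers of other cells also differed among the iWAT libraries. Brown and beige fat genes, 10 in all, summed to 578, 910 and 1076 FPKM in WT mice and to 650, 229 and 121 FPKM in MCK-Musclin mice, so MCK-Musclin 1 lay among the WT libraries here too, and *Ucp1* was at 130, 248 and 346 FPKM and at 173, 31.6 and 2.91 FPKM. Both *Pdk4* and the subunits were high in brown adipose tissue (above). Among the WT libraries *Pdha1*, *Pdhb*, *Dlat* and *Pdhx* were all highest in WT 1, where the brown and beige sum was lowest, and *Pdk4* was lowest there (22.6 FPKM). Among the MCK-Musclin libraries the summed FPKM of the 4 subunits, at 533, 353 and 332, had the same order as the brown and beige sum. The 15 fast muscle genes summed to 11.7, 871 and 4906 FPKM in WT mice and to 12.3, 169 and 200 FPKM in MCK-Musclin mice. *Pdk2* was highest in WT 3, which held the most of them, and its log2 difference without WT 3 was -0.28. General adipocyte genes summed to 15415 to 16490 FPKM in WT and 13888 to 15712 FPKM in MCK-Musclin mice, and when libraries were centred on them the median of all genes moved to 0.27, with *Pdk2* at -0.15 and 7 of the 10 genes lower. The part of these cell types in the differences was not tested.

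The neighbouring steps of the pathway were described in the same way. Of 10 genes of pyruvate supply and other fates, all 10 were lower in MCK-Musclin mice and none passed the cutoff of the study, with a median of -0.36. Lactate dehydrogenase B (*Ldhb*) was at 50.3, 56.4 and 56.1 FPKM in WT and 47.0, 42.4 and 30.7 FPKM in MCK-Musclin mice (-0.45 ± 0.16, SE, limma, adjusted p = 0.233), without overlap, as were *Ldha* and the alanine aminotransferase *Gpt2*. *Mpc1* differed by -0.46 ± 0.20 (SE, limma, adjusted p = 0.301). Without the library labelled MCK-Musclin 1 the median was -0.45, and *Mpc1*, *Mpc2*, *Ldhb* and *Me1*, 4 of the 10, passed the cutoff as lower.

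*Dld*, the phosphatase regulator *Pdpr* and 9 genes of lipoyl synthesis, which makes the cofactor of E2, were lower in 11 of 11 cases, with a median of only -0.12 and none past the cutoff. *Dld* was at 179, 179 and 186 FPKM in WT and 183, 135 and 143 FPKM in MCK-Musclin mice. Of 8 genes of the related 2-oxoacid dehydrogenases 6 were lower. Groups did not overlap for 5 of the 8 as lower and 1 as higher, where 5.44% of all genes did so as lower. *Ogdh*, the E1 of the 2-oxoglutarate complex, passed the cutoff as lower, at 81.2, 83.1 and 98.1 against 75.1, 58.6 and 51.1 FPKM (-0.51 ± 0.16, SE, limma, adjusted p = 0.194). *Ppm1k*, the phosphatase of the branched-chain complex, was at 2.92, 2.67 and 2.51 against 3.76, 3.54 and 3.51 FPKM. The kinase and phosphatase of that complex thus had no common sign, since *Bckdk* differed by -0.08. Of 6 genes of acetyl-CoA use, all 6 were lower, with a median of -0.51 and none past the cutoff, *Cs* at 162, 155 and 158 against 148, 119 and 99.2 FPKM without overlap. With MCK-Musclin 1 left out, the medians of these 3 lists were -0.22, -0.24 and -0.78, and 0, 1 (*Ogdh*) and 4 genes (*Cs*, *Acaca*, *Acacb* and *Fasn*) passed the cutoff, all lower.

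Genes known to act on the *Pdk* genes gave 7 of 11 lower and 2 past the cutoff. *Ppargc1a*, a coactivator of oxidative genes, was lower at 7.16, 7.23 and 6.51 against 6.34, 2.96 and 2.01 FPKM (-0.84 ± 0.30, SE, limma, adjusted p = 0.233), and *Ppara*, a fatty acid receptor, at 2.59, 4.33 and 5.11 against 3.29, 1.53 and 1.77 FPKM (-0.65 ± 0.26, SE, limma, adjusted p = 0.280). *Foxo1*, *Foxo3*, *Hif1a* and *Ppard* had small positive differences, of 0.04 to 0.16. Of 11 PPAR target genes tested, 9 were lower, 4 passed the cutoff as lower (*Cpt1b*, *Acadm*, *Fabp3* and *Ehhadh*) and *Angptl4* as higher. *Angptl4*, an inhibitor of lipoprotein lipase, was at 14.5, 49.8 and 21.3 against 49.0, 58.5 and 41.7 FPKM, and WT 2 was its highest WT library, as it was for *Pdk4*. With MCK-Musclin 1 left out, *Ppargc1a* (-1.20) and *Ppara* (-0.88) passed the cutoff again and the median of the 11 regulators was -0.13. Of the PPAR targets 6 then passed as lower, *Plin2* and *Acadl* being added, the median was -0.52 and *Angptl4* no longer passed.

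The third question was the same comparison in BAT. Here 5 of the 10 genes were lower and 5 higher, with a median log2 difference of -0.02 where that of 10893 genes was -0.01. None passed the cutoff of the study in BAT, an unadjusted p under 0.05 with a log2 difference over 0.3, which 2.15% of all genes passed as lower, 1.85% as higher and 4% in either direction. None had an adjusted p under 0.05 (limma, Benjamini-Hochberg), against 1 gene of 10893 (0.00918%). At an unadjusted p under 0.05, 1 of 10 was lower, *Pdk2*, against 2.71% of all genes as lower and 4.89% in either direction.

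*Pdk2* was at 208, 196 and 191 FPKM in WT mice and at 170, 162 and 175 FPKM in MCK-Musclin mice. Every MCK-Musclin library was below every WT library, as in 5.63% of all genes. The means were 199 ± 8.72 (SD, n = 3) and 169 ± 6.49 FPKM (SD, n = 3), a log2 difference of -0.23 ± 0.08 (SE, limma, p = 0.0192, adjusted p = 0.968, exact permutation p = 0.1). The unadjusted p was 0.0629 without MCK-Musclin 2 and 0.0661 without WT 1. *Pdk2* per *Pdha1*, a ratio within a library, was 0.187 to 0.198 in WT mice and 0.152 to 0.175 in MCK-Musclin mice without overlap, and *Pdk2* per *Cs* was 0.403 to 0.434 and 0.316 to 0.370.

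*Pdk2* was thus below all WT libraries in both tissues, as were 38 of 9757 genes tested in both (0.389%). With an unadjusted p under 0.05 and a lower mean in both tissues there were 10 such genes (0.102%). Without the iWAT library labelled MCK-Musclin 1 these counts were 60 (0.615%) and 12 (0.123%). In iWAT its ratios to *Pdha1* and to *Cs* overlapped between genotypes, at 0.134 to 0.225 in WT and 0.144 to 0.225 in MCK-Musclin mice for *Pdha1*. In BAT neither ratio overlapped (above). The tables were normalized separately and the difference between tissues was not tested.

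**Figure D4:**
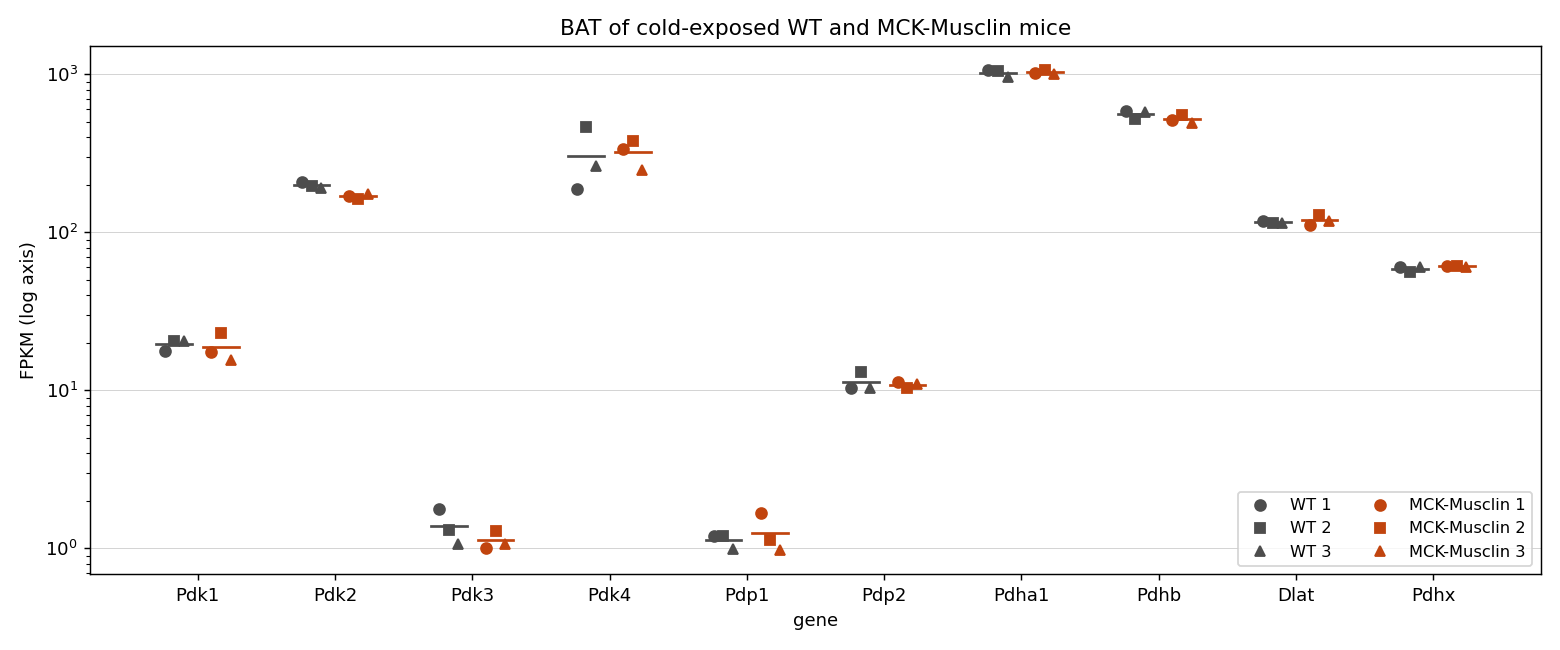
FPKM (log axis) of the 10 genes in each BAT library of cold-exposed WT (grey) and MCK-Musclin (red) mice, with the group mean as a bar. The 3 MCK-Musclin libraries lie below the 3 WT libraries for *Pdk2* (162 to 175 against 191 to 208 FPKM), and the groups overlap for the other 9 genes.

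The subunits in BAT had narrow intervals around 0. *Pdha1* was at 1061, 1047 and 965 FPKM in WT mice and at 1022, 1066 and 1002 FPKM in MCK-Musclin mice, a log2 difference of 0.01 with a 95% confidence interval from -0.16 to 0.18. *Dlat* was at 118, 115 and 115 FPKM and at 112, 129 and 117 FPKM (0.03, interval from -0.16 to 0.23), and *Pdhx* at 60.0, 56.2 and 60.6 FPKM and at 61.6, 61.0 and 60.0 FPKM (0.05, interval from -0.14 to 0.23). *Pdhb* was at 590, 520 and 580 FPKM and at 516, 556 and 495 FPKM (-0.11, interval from -0.31 to 0.09). The iWAT estimate for *Pdha1* (-0.44) lay outside its BAT interval, but the iWAT interval, from -0.86 to -0.02, overlapped it. The difference between tissues was not tested.

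The other kinases and the phosphatases overlapped. *Pdk4* was at 187, 465 and 265 FPKM in WT mice and at 336, 381 and 248 FPKM in MCK-Musclin mice, a log2 difference of 0.15 with a 95% confidence interval from -0.59 to 0.89, and its sign turned without WT 1. As in iWAT it was the member with the widest interval, and its WT libraries spanned 2.49-fold. *Pdk1* was at 17.8, 20.4 and 20.6 FPKM and at 17.5, 23.0 and 15.7 FPKM. *Pdk3* was near 1 FPKM, at 1.77, 1.31 and 1.06 and at 1.00, 1.30 and 1.07 FPKM, and *Pdp1* likewise, at 1.19, 1.20 and 0.995 and at 1.67, 1.12 and 0.973 FPKM. *Pdp2* was at 10.4, 13.1 and 10.4 FPKM and at 11.3, 10.4 and 10.9 FPKM. *Pdk4* and *Pdk2* made up nearly all kinase FPKM in BAT, and the share of *Pdk4* was 45.1%, 68.1% and 55.4% in WT libraries against 64.0%, 67.1% and 56.4% with the transgene.

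**Figure D5:**
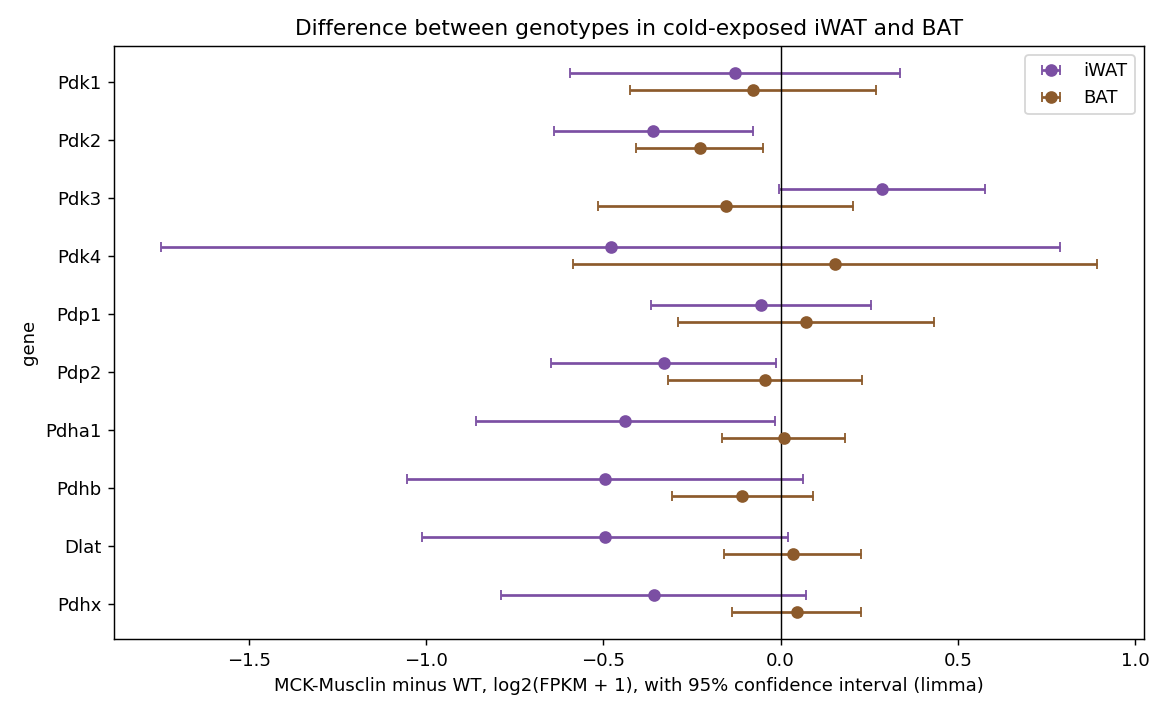
Log2 difference between MCK-Musclin and WT mice for each gene with its 95% confidence interval (limma), in iWAT (purple) and BAT (brown). Intervals of *Pdk2* lie below 0 in both tissues (-0.64 to -0.08 and -0.41 to -0.05), before adjustment for the number of genes, and that of *Pdk4* spans -1.75 to 0.79 in iWAT.

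In BAT fast muscle genes moved with genotype. Of 15 genes, 13 passed the cutoff of the study as higher in MCK-Musclin mice, and their sum was 541 to 860 FPKM in WT mice and 899 to 1972 FPKM in MCK-Musclin mice, while 5 erythrocyte genes summed to 1553 to 1978 and 2293 to 2388 FPKM. The 6 endothelial genes summed to 144 to 154 FPKM in WT mice and 127 to 136 FPKM in MCK-Musclin mice, without overlap, with 5 of 6 lower and a median of -0.12. Brown and beige fat genes overlapped, at 8938 to 10336 FPKM in WT and 8604 to 9953 FPKM in MCK-Musclin mice. The part of other cells in the value of *Pdk2* was not tested.

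The neighbouring lists of the pathway stayed near 0 in BAT, with medians of -0.04 to 0.04. Lipoyltransferase *Lipt1* passed the cutoff as higher, at 6.73, 7.29 and 8.24 against 9.27, 10.9 and 10.02 FPKM (0.40 ± 0.12, SE, limma, adjusted p = 0.929), and *Isca2*, which serves iron-sulfur cluster assembly, as lower, at 51.3, 49.0 and 52.2 against 40.4, 45.6 and 36.5 FPKM (-0.32 ± 0.10, SE, limma, adjusted p = 0.968). The genes of this list had no common direction, with 5 of 11 lower. *Mpc1* was at 264, 222 and 227 against 193, 209 and 199 FPKM without overlap (-0.24 ± 0.09, SE, limma, adjusted p = 0.968), so the pyruvate carrier gene too was lower in both tissues on average, though in iWAT its groups overlapped.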

How the data were processed

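RNA-Seq values of 19 mouse libraries were analysed. Per the labels and the study's methods, polyadenylated RNA was sequenced, reads were filtered with fastp and bowtie2 (2.4.1 in the submitters' processing notes), aligned with HISAT2 2.1.0 to mm10 (GRCm38) without using strand, and summarised per gene by StringTie, and the authors deposited these FPKM values. The notes also name Cuffdiff, with no role given. The iWAT table also holds log2 fold changes, p-values and FDR of the authors' own comparison with group means, which were not used. Read counts were not analysed here, and FPKM give no depth in reads. From the steps between low FPKM values, relative depth was 0.918 to 1.05 among the tissues (heart as 1) and 0.890 to 1.11 in BAT, and unknown in iWAT. FPKM summed to 393682 to 711437 in the tissues, 364710 to 384104 in iWAT and 676362 to 720852 in BAT. In the tables of tissues and BAT 287 lines repeat a gene, and each was used once.

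Within each adipose table genotypes were compared with limma 3.58.1 (lmFit, eBayes with trend, two-sided) in R 4.3.3 on log2(FPKM + 1), leaving out genes whose mean FPKM was under 1, with Benjamini-Hochberg adjustment over all genes tested. A fold change on this scale understates that of low genes. Per the study's reporting summary, the libraries of a genotype came from separate animals. The study applied its cutoff, an unadjusted p with a minimum log2 difference, to a model of read counts, and here the same thresholds were applied to limma, so the calls differ in kind. Single values were also given an exact permutation test (scipy 1.17.1). The 7 tissues had no test. The limma step was first tested on simulated data.

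The members and 17 gene lists (6 of the pathway, 11 of cell type markers) were chosen with earlier results of these data known. Named genes were the members, the genes of the lists, and the 5 genes of highest Pearson r to each kinase and *Pdha1* over the tissues. Positions, exon overlaps and biotypes came from GENCODE of GRCm38, promoters from RefSeq (GRCm38.p6). Alternatives were pseudocounts of 0.1 and 0.01, no filter or a mean FPKM of at least 5, rescaling to a common sum (TPM), median-ratio scaling, centring on adipocyte markers, eBayes without trend or robust, the replicate number as a block, and leaving out each library. Other samples of the study were not analysed here. Tables were handled with Python 3.11.15, numpy 2.4.6 and pandas 2.3.3, and figures drawn with matplotlib 3.10.9.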

Additional observations from a re-analysis of the deposited data

How the results depend on the processing

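In no alternative did a member reach an adjusted p under 0.05, in iWAT or BAT. The smallest was 0.0573, for *Pdk3* in iWAT (limma, Benjamini-Hochberg). In iWAT the number of members past the study's cutoff, 0 of 10 as reported, was 1 with rescaling to a common sum (*Dlat*) and 3 with median-ratio scaling (*Pdha1*, *Pdhb* and *Dlat*), and ranged from 0 to 4 over the leave-one-out fits, 4 without the library labelled MCK-Musclin 1 and 1 each without WT 1 (*Pdk4*) or WT 3 (*Pdha1*). The number at an unadjusted p under 0.05, 3 as reported and all lower, was 5 with median-ratio scaling and 6 with the replicate block. When centred on adipocyte markers it was 1, and that gene was *Pdk3* as higher (log2 difference 0.49), not 1 of the 3 reported. When leaving out a library the number was 0 to 6, with 6 without MCK-Musclin 1 and 0 without MCK-Musclin 2. It was 1 without WT 2 (*Pdk3*, as higher) and 1 without WT 3 (*Pdha1*, as lower). In BAT that number, 1 as reported, was 0 when centred on adipocyte markers and 0 with eBayes without trend, and 0 to 1 when leaving out a library, 0 without MCK-Musclin 2 or WT 1.

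Centring on adipocyte markers moved the median of all genes to 0.27 in iWAT and 0.11 in BAT and turned the sign of *Pdk1* (0.0759) and *Pdp1* (0.15) in iWAT and of *Pdk1* (0.0393), *Pdp2* (0.0740) and *Pdhb* (0.0107) in BAT. Over all genes it gave 25 lower and 1861 higher calls at the cutoff in iWAT, and median-ratio scaling 187 and 424, against 110 and 615 as reported. Centring also put 999 iWAT genes at an adjusted p under 0.05 (limma, Benjamini-Hochberg), against 0 as reported, so that count depended on the scaling. In BAT centring gave 61 and 400 against 234 and 202.

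Leaving out a library turned the sign of members near 0. In iWAT these were *Pdk1* (-0.251 to 0.0779) and *Pdp1* (-0.109 to 0.0530). In BAT they were *Pdk1* (-0.229 to 0.0340), *Pdk4* (-0.15 to 0.51), *Pdp1* (-0.0556 to 0.161), *Pdp2* (-0.097 to 0.0572), *Pdha1* (-0.0338 to 0.0347) and *Dlat* (-0.0221 to 0.0801). The range for *Pdk2* was -0.47 to -0.28 in iWAT and -0.25 to -0.19 in BAT. Among tissues, rescaling to a common sum turned the log2 ratio of the top tissue to the next for *Pdk3* (-0.0995) and *Pdhx* (-0.0383), and median-ratio scaling for *Pdp1* (-0.26), *Pdha1* (-0.0823), *Pdhb* (-0.30), *Dlat* (-0.24) and *Pdhx* (-0.18). The causes were not tested.

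Libraries share replicate numbers between genotypes. The deviations of same-numbered libraries correlated at 0.235, 0.0615 and 0.107 in iWAT and at -0.0951, -0.00463 and 0.00937 in BAT. Those of other-numbered libraries in iWAT correlated at -0.180 to 0.0702. The labels name no pairs and the numbers were not taken as pairs, but a pairing or batch in iWAT was not tested. In iWAT 5 of 6 libraries, and in BAT 0 of 6, correlated best with the library of their own number. The replicate block left 0 members past the cutoff in either tissue, with 154 lower and 620 higher genes in iWAT and 246 and 214 in BAT. Where an arm was left with 2 libraries, the spread was pooled. FPKM without counts limit what can be said of *Pdk3* and *Pdp1* in BAT, near 1 FPKM.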
